A study of Mus musculus with 8 samples.

Results

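The 8 genes examined here encode ligands, receptor chains and a feedback inhibitor of the IL-6 family. They were taken by symbol from a table of 22520 protein-coding genes, and all 8 were found: the ligands Il6, Lif and Il11, the receptor chains Il6ra, Osmr, Lifr and Il6st, and the inhibitor Socs3. The libraries were made from liver cells, labelled microvesicular and meant to be microvascular endothelium, of C57BL/6 mice at postnatal day 14, with 4 libraries of WT (LRP1 f/f; Cdh5-CreER-/-) and 4 of LRP1 eKO (LRP1 f/f; Cdh5-CreER+/-) littermates. Both groups carry the floxed Lrp1 allele, CreER is driven by a vascular endothelial cadherin (Cdh5) promoter, and only LRP1 eKO mice carry CreER, whose own effect and that of Lrp1 deletion cannot be told apart. The cells had been captured with beads against PECAM-1. Whether the libraries came from separate mice is not stated, and p-values measure the spread between these libraries.

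Cytokines of the IL-6 family signal through gp130, the product of Il6st. Each ligand reaches gp130 with a partner: IL-6 binds IL-6Rα (Il6ra), LIF binds LIFR, oncostatin M binds OSMR in the mouse, and IL-11 binds IL-11Rα. The receptor complex activates JAK kinases and STAT3, and STAT3 induces Socs3, whose product binds gp130 and JAKs and ends the signal. In the liver, this pathway is known for inducing the acute phase genes of hepatocytes.

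In LRP1 eKO libraries, Il6 was 2.90-fold higher by the ratio of mean signals, while Socs3 was at 67% of the WT mean. Lif was 1.16-fold higher, a call that was lost in 6 of the 8 analyses that left out 1 library. The 4 receptor chains and Il11 did not pass the test. Thus 2 of the 8 genes were higher and 1 was lower at an adjusted p under 0.05, and 0 of them passed the 2-fold threshold of the study's methods on the log2 scale. Of the 7 tested members, 42.9% were called, against 41.2% of all 11391 genes tested, so that the number of calls in the family is near the background. Higher calls made up 19% and lower calls 22.2% of all genes tested. With the 2-fold threshold, 1.66% of all genes were called, 0.869% higher and 0.79% lower. The ranges of both groups did not overlap for 3 members, as for 42.6% of all genes tested. The median log2 fold change was 0.14 over the 7 members and -0.0095 over all genes tested, and Il6 entered the test only because its LRP1 eKO signals reached the minimum, so the median and the count are descriptions.

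**Figure D1:**
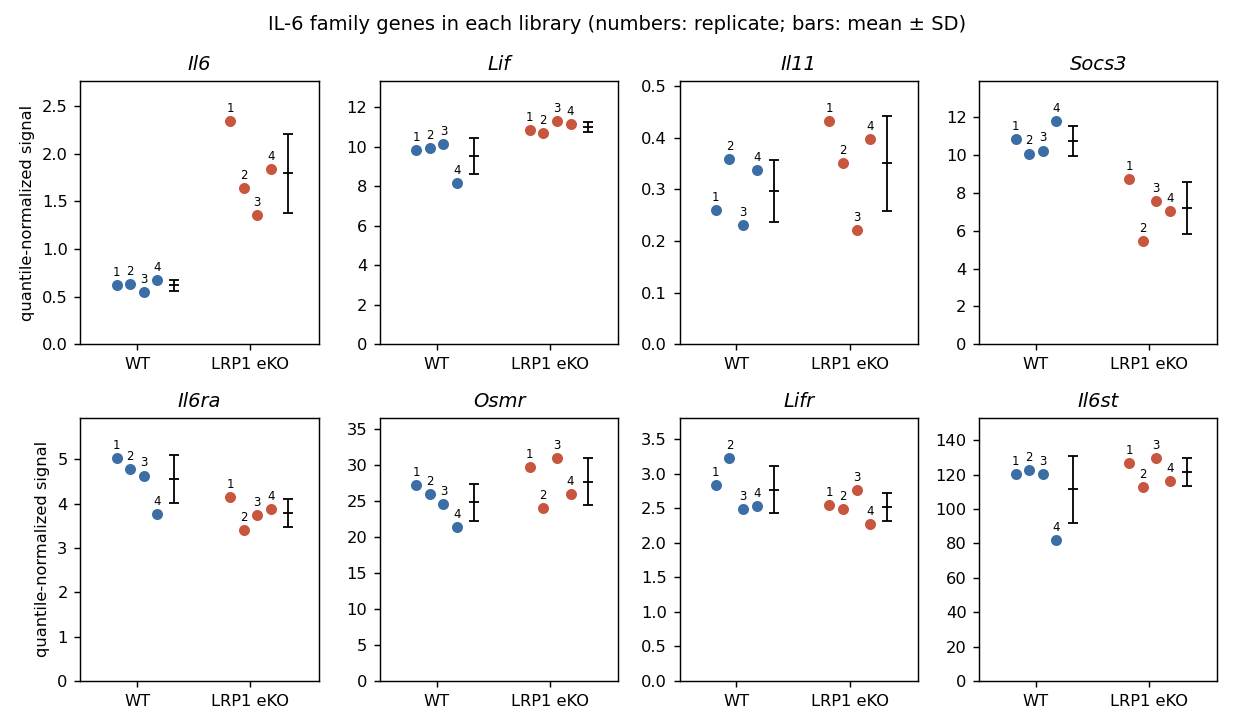
Quantile-normalized signal (y axis, from 0) of the 8 IL-6 family genes in each of the 4 WT (blue) and 4 LRP1 eKO (red) libraries, numbered by replicate, with bars for mean ± SD. The groups do not overlap for Il6, Lif and Socs3, and WT replicate 4 is the lowest WT library for Lif, Il6ra, Osmr and Il6st.

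The unit is a signal that the authors normalized by quantiles, so that each library summed to between 484445 and 485947 and its depth is unknown. Whether the signal was divided by gene length is not stated, and the levels of members were therefore not compared with each other. Fold changes are differences of mean log2(signal + 1), which understate the change of low genes, and were tested with limma and Benjamini-Hochberg adjustment over all genes tested. Lrp1, the deleted gene, fell from 65.5 ± 13.3 to 4.41 ± 1.65 (n = 4 each, SD). WT replicate 4 was farthest from the WT median for 61.7% of genes, and LRP1 eKO replicate 2 was farthest from its group's median for 37.2%.

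The cell type of the libraries was checked against marker genes. The defining endothelial markers Pecam1 and Cdh5 had mean signals of 2.09 and 1.86 in WT and of 3.02 and 3.70 in LRP1 eKO libraries, and 3 of the 10 pan-endothelial genes were below the filter, of which Tek and Erg were below 1 in every library. The highest means of this list were those of Eng, at 12.4 in WT and 24.3 in LRP1 eKO libraries, and Flt1, at 10.4 and 16.3. The 10 genes of this list summed to between 31.4 and 41.6 in WT and between 52.8 and 68.0 in LRP1 eKO libraries. The 7 mesothelial genes summed to between 2320 and 3310 over all libraries, and the 12 genes of stellate cells and fibroblasts to between 1780 and 2350. Most of the latter sum came from the matrix genes Col1a2, Dcn, Col1a1 and Col3a1, while Lrat, Reln and Ngfr were below 1 in every library. Smooth muscle genes, 6 in number, summed to between 1500 and 1940, most of it from Acta2 and Tagln. Since gene length may enter the signal, these sums were not tested against each other. Low signals of the defining markers Pecam1 and Cdh5 go against a pure endothelial preparation. So do the signals of the 7 mesothelial genes and, among the 6 smooth muscle genes, those of Acta2, Tagln and Smtn. Cnn1 and Actg2 had lower means, at 4.697 and 7.975 in WT and 6.085 and 14.43 in LRP1 eKO libraries. Myh11 was below 1 in WT libraries. The values below belong to the libraries as a whole. In such bulk libraries, fewer cells of a type and less RNA per cell cannot be told apart.

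**Figure D2:**
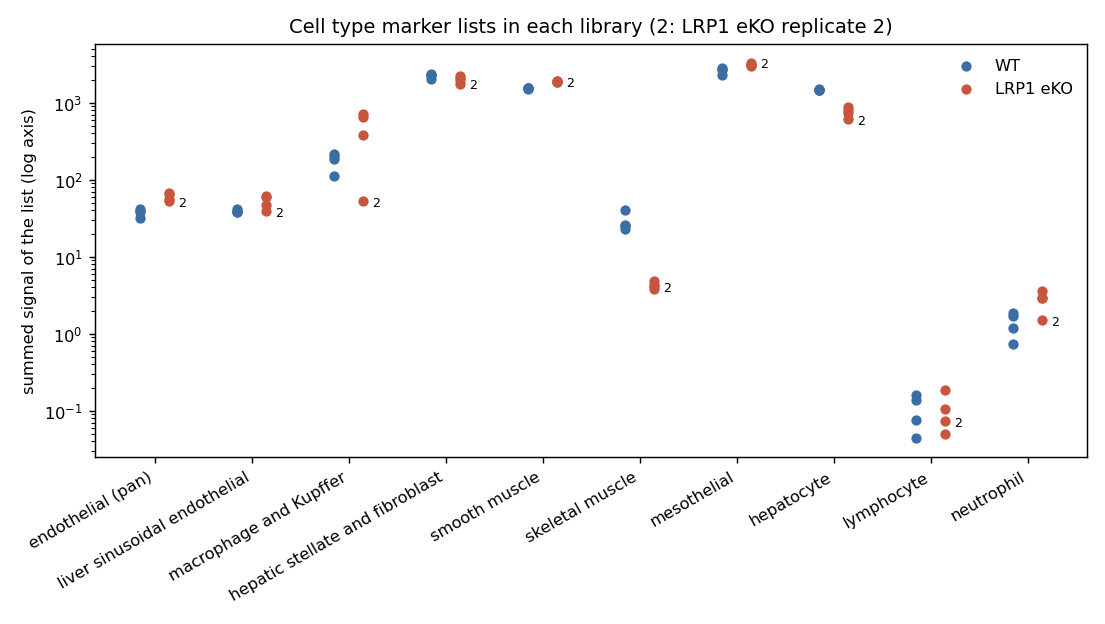
Summed signal (log y axis) of each cell type marker list (x axis) in WT (blue) and LRP1 eKO (red) libraries, 1 point per library, with LRP1 eKO replicate 2 numbered. The mesothelial and the stellate and fibroblast lists lie at 1780 or above in every library, the pan-endothelial list lies between 31.4 and 68.0, and the macrophage list of LRP1 eKO replicate 2 lies below every WT library.

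Promoter sequences are shown for the 3 members that were called, from the RefSeq-based table on GRCm38.p6, the build also called mm10, in which all 8 members had an entry. The 250 bases before the start were searched on both strands for TTCNNNGAA (STAT), GGANTTTCC (core of the NF-kB site), TGANTCA (AP-1), TTGCNNAA (C/EBP) and TGACGTCA (CRE). Matches stand in capitals, and bases inside an annotated exon of the same gene were left out. The Il6 stretch is chr5:30012864-30013113 on the plus strand, that of Lif is chr11:4257318-4257556 on the plus strand, and that of Socs3 is chr11:117969452-117969616 on the minus strand.
Il6: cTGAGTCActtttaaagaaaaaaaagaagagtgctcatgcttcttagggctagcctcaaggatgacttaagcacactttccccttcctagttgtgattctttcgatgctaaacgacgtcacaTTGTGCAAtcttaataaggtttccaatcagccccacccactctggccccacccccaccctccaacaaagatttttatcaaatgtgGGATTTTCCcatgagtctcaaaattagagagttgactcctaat
Lif: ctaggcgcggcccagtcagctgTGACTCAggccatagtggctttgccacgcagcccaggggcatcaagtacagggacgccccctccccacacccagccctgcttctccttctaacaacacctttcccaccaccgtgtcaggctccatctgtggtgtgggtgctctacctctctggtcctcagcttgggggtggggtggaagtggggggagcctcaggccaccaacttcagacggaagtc
Socs3: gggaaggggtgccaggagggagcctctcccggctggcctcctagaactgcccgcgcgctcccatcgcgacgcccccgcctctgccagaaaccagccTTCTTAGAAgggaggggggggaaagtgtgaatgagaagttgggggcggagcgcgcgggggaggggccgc

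Il6 had an NF-kB match from -43 to -35, a C/EBP match from -128 to -121 and an AP-1 match from -249 to -243 relative to the start. Among 32851 promoter entries, these letters were found in 1.07%, 9.56% and 6.75%, respectively. Lif had an AP-1 match from -228 to -222, and Il11 had an AP-1 match before one of its starts. Socs3 had a STAT match from -154 to -146 relative to its start in the RefSeq-based table, and 7.02% of all promoter entries hold one. That start lies inside the GENCODE span of Socs3 (117966079 to 117970047), and so does the printed stretch. The exact CRE letters occur in 1.55% of entries and in none of the 250-base windows of the 8 genes. Sites that differ from the searched letters, such as cgacgtca in the Il6 stretch, were not counted. Il6ra, Osmr, Lifr and Il6st had no match to any of the 5 motifs. No match overlapped that of another motif. A match is a description of letters and was not tested for binding.

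Il6, the ligand that names the family, lies on chromosome 5 from 30013114 to 30019981 (plus strand, GRCm38). Its signal was 0.620, 0.636, 0.543 and 0.676 for WT 1 to 4 and 2.34, 1.64, 1.35 and 1.84 for LRP1 eKO 1 to 4. Every LRP1 eKO library was above every WT library, and the lowest LRP1 eKO signal was that of replicate 3. The mean rose from 0.619 ± 0.0558 to 1.79 ± 0.416 (n = 4 each, SD). This was a log2 fold change of 0.78 with a standard error of 0.10 (adjusted p = 3.1e-04 by limma), and the exact two-sided permutation test gave p = 0.029, the smallest that 4 libraries against 4 allow. Of all genes tested, 3.68% had a larger absolute change. Because the signal is low, the size of the change depends on the pseudocount: the log2 fold change was 1.38 with a pseudocount of 0.1 and 0.27 with 5. Fitted without the filter, Il6 kept an adjusted p of 0.0038 from limma, and with 1 library left out its adjusted p was at most 0.016. With any 1 LRP1 eKO library left out, Il6 fell below the filter, and those 4 values came from the fit without it. With 1 WT library left out, it stayed in the filter, with a limma adjusted p of at most 0.0016.

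Macrophages are among the known sources of IL-6, and their markers were examined beside it. Of the 13 genes of the macrophage and Kupffer cell list, 12 were found by symbol, 8 were tested, all 8 had a positive log2 fold change, with a median of 1.19, and 1, Csf1r, passed the test. The list summed to between 112 and 219 in WT libraries and to 722, 52.3, 659 and 387 for LRP1 eKO 1 to 4. The Kupffer cell marker Clec4f was at 0 in all WT libraries and between 0.124 and 0.826 in LRP1 eKO libraries. In the same list, Timd4 was at 0 in 7 of the 8 libraries. Vsig4, Marco and Cd5l were above 0 in all WT libraries and did not pass the test. LRP1 eKO replicate 2 had a macrophage sum below every WT library and an Il6 signal of 1.64. The part of macrophages in the Il6 difference was not tested. Without LRP1 eKO replicate 2, the log2 fold change of Il6 was 0.80. Lymphocyte genes were below a signal of 1 in every library for all 8 listed genes, and 4 of them were at 0 throughout, among them Cd3g, Cd8a and Ncr1. Of the 7 neutrophil genes, 6 were below 1 in every library, and the list summed to between 0.735 and 1.84 in WT and between 1.5 and 3.59 in LRP1 eKO libraries.

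Lif encodes leukemia inhibitory factor and lies on chromosome 11 from 4257557 to 4272514 (plus strand). Its signal was 9.81, 9.92, 10.1 and 8.16 for WT 1 to 4 and 10.8, 10.7, 11.3 and 11.2 for LRP1 eKO 1 to 4. The groups did not overlap, although the lowest LRP1 eKO library was close to the highest WT library and WT replicate 4 was apart from the other WT libraries. The WT mean was 9.51 ± 0.910, and that of LRP1 eKO was 11 ± 0.271 (n = 4 each, SD), with a difference of 0.20 in log2 units (standard error 0.068, limma adjusted p = 0.042). Without WT replicate 4 the change was 0.13, with an adjusted p of 0.030 from limma. The call was lost without WT replicate 1 (limma adjusted p = 0.060) or WT replicate 2 (0.053). It was also lost without LRP1 eKO replicate 1, 2, 3 or 4, where limma gave an adjusted p of 0.073, 0.058, 0.099 and 0.092.

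Il11, whose product acts on fibroblasts and other stromal cells, was below a signal of 1 in all 8 libraries and was fitted without the filter. It lies on chromosome 7 from 4772373 to 4782859 (minus strand). The signal was 0.260, 0.358, 0.232 and 0.338 for WT 1 to 4 and 0.432, 0.351, 0.221 and 0.397 for LRP1 eKO 1 to 4. The groups overlapped, and LRP1 eKO replicate 3 was the lowest of all. The difference of 0.06 on the log2 scale (95% interval -0.08 to 0.19, limma adjusted p = 0.62) did not pass the test.

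Il6ra encodes the chain that binds IL-6, on chromosome 3 from 89864059 to 89913196 (minus strand). Its signal was 5.04, 4.77, 4.64 and 3.78 for WT 1 to 4 and 4.16, 3.40, 3.75 and 3.88 for LRP1 eKO 1 to 4. Only WT replicate 4 lay within the range of the LRP1 eKO libraries. The log2 fold change was -0.21 (95% interval -0.40 to -0.02), with a limma adjusted p of 0.070 and an exact two-sided permutation p of 0.086. Without WT replicate 4 it was -0.28 and passed the test (limma adjusted p = 0.0084). It also passed without WT replicate 4 and LRP1 eKO replicate 2 together, at -0.24 (limma adjusted p = 0.011).

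Il6st, the gene of gp130, lies on chromosome 13 from 112464070 to 112510086 (plus strand). Its signal was 120.5, 122, 120.4 and 82.1 for WT 1 to 4 and 127, 113, 129.7 and 116 for LRP1 eKO 1 to 4. WT replicate 4 was far below the other libraries, which lay between 113 and 129.7 in both groups. The log2 fold change of 0.14 (95% interval -0.13 to 0.41, limma adjusted p = 0.37) did not pass the test, and it was 0.00079 without WT replicate 4.

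Osmr and Lifr, the receptor chains for oncostatin M and LIF, lie on chromosome 15 with 215644 bases between them. Osmr extends from 6813577 to 6874969 (minus strand) and Lifr from 7090614 to 7197489 (plus strand). The signal of Osmr was 27.2, 26, 24.6 and 21.4 for WT 1 to 4 and 29.8, 24.0, 31.0 and 26 for LRP1 eKO 1 to 4. The groups overlapped, with a log2 fold change of 0.15 (95% interval -0.06 to 0.36, limma adjusted p = 0.22). Lifr had signals of 2.84, 3.23, 2.49 and 2.54 for WT 1 to 4 and of 2.55, 2.50, 2.77 and 2.28 for LRP1 eKO 1 to 4. Again the groups overlapped, and the log2 fold change was -0.10 (95% interval -0.27 to 0.08, limma adjusted p = 0.35). For Osmr, Lifr and Il6st, the intervals exclude a change of 2-fold in either direction, and smaller differences lie within them.

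Socs3, the feedback inhibitor induced by STAT3, lies on chromosome 11 from 117966079 to 117970047 (minus strand). Its signal was 10.8, 10.1, 10.2 and 11.8 for WT 1 to 4 and 8.71, 5.43, 7.56 and 7.07 for LRP1 eKO 1 to 4. Every LRP1 eKO library was below every WT library, and LRP1 eKO replicate 2 was the lowest. The mean fell from 10.7 ± 0.776 to 7.19 ± 1.36 (n = 4 each, SD), with a difference of -0.53 in log2 units (standard error 0.11, limma adjusted p = 0.0047). The exact two-sided permutation test gave p = 0.029, and 8.69% of all genes tested had a larger absolute change. Without LRP1 eKO replicate 2 the change was -0.42 (limma adjusted p = 0.0039), and with 1 library left out the adjusted p was at most 0.015. The group means of Il6 and Socs3 therefore differed in opposite directions. Within the groups, LRP1 eKO replicate 1 had the highest LRP1 eKO signal of both genes, and WT replicate 4 had the highest WT signal of both.

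LRP1 eKO replicate 2, the library with the lowest Socs3 signal, had the lowest LRP1 eKO sums of several marker lists: hepatocyte (608), macrophage and Kupffer cell (52.3), stellate cell and fibroblast (1780), pan-endothelial (52.8), sinusoidal (38.9) and neutrophil (1.5). Its mesothelial sum (3310) was the highest of all libraries. Its smooth muscle (1880), skeletal muscle (4.11) and lymphocyte (0.0724) sums were not the lowest of its group. The 8 hepatocyte genes summed to between 1460 and 1520 in WT libraries and to 815, 608, 893 and 741 for LRP1 eKO 1 to 4, and all 5 tested genes fell, among them Alb from 20.8 to 6.15. Most of this sum was Trf, the transferrin gene, and without it the sums were 72.8 to 111 in WT and 27.7 to 36.1 in LRP1 eKO libraries, a calculation added after the data were seen. Of the 8 skeletal muscle genes listed, 7 were found and 4 were tested and lower, with sums between 22.8 and 40.7 in WT and between 3.84 and 4.86 in LRP1 eKO libraries. Of these 4, Tnnc2 and Atp2a1 reached a signal of 1 in WT libraries only, so that the filter fixed their direction. The part of these cell types in the fall of Socs3 was not tested. Stellate and fibroblast sums overlapped between WT (2030 to 2350) and LRP1 eKO libraries (1780 to 2240), with 1 of 9 tested genes higher and 3 lower. Mesothelial sums were 2320 to 2790 in WT and 2990 to 3310 in LRP1 eKO libraries, with 2 of 7 genes higher, and smooth muscle sums were 1500 to 1570 and 1850 to 1940, with 5 of 6 higher, among them Myh11, which reached 1 in LRP1 eKO libraries only. The sums of 10 liver sinusoidal endothelial genes overlapped, at 37.9 to 41.4 and 38.9 to 61.5, and 1 of the 5 tested, Oit3, was higher, which also reached 1 in LRP1 eKO libraries only. Of the 7 tested pan-endothelial genes, 3 were higher, and Cldn5, below the filter, was lower, at -0.32 on the log2 scale (limma adjusted p = 0.013, fitted without the filter).

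**Figure D3:**
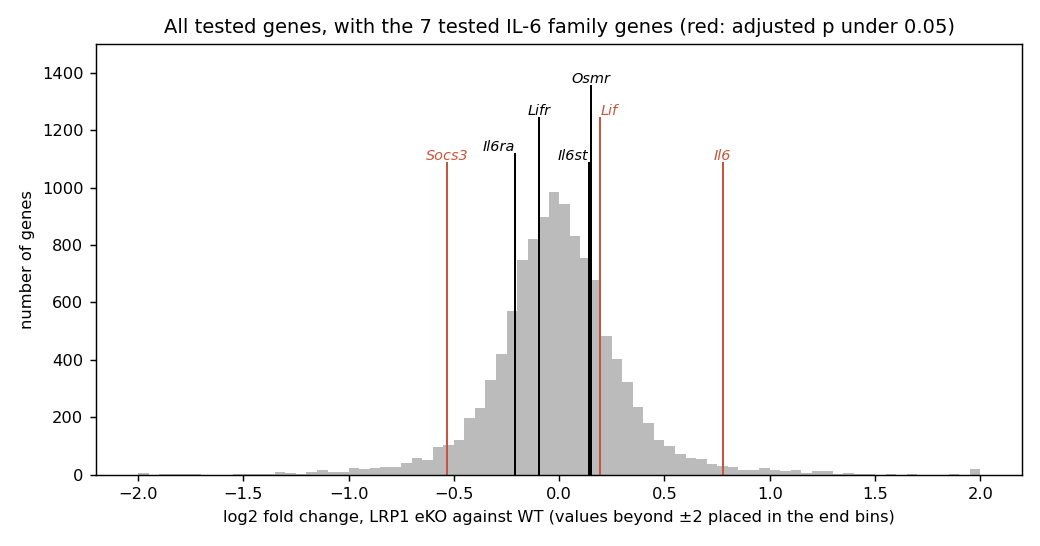
Number of genes (y axis) by log2 fold change of LRP1 eKO against WT (x axis) for all 11391 genes tested, with lines at the 7 tested IL-6 family genes, red where the adjusted p was under 0.05. Il6 at 0.78 and Socs3 at -0.53 stand in opposite tails, and the other 5 lie between -0.21 and 0.20.

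**Figure D4:**
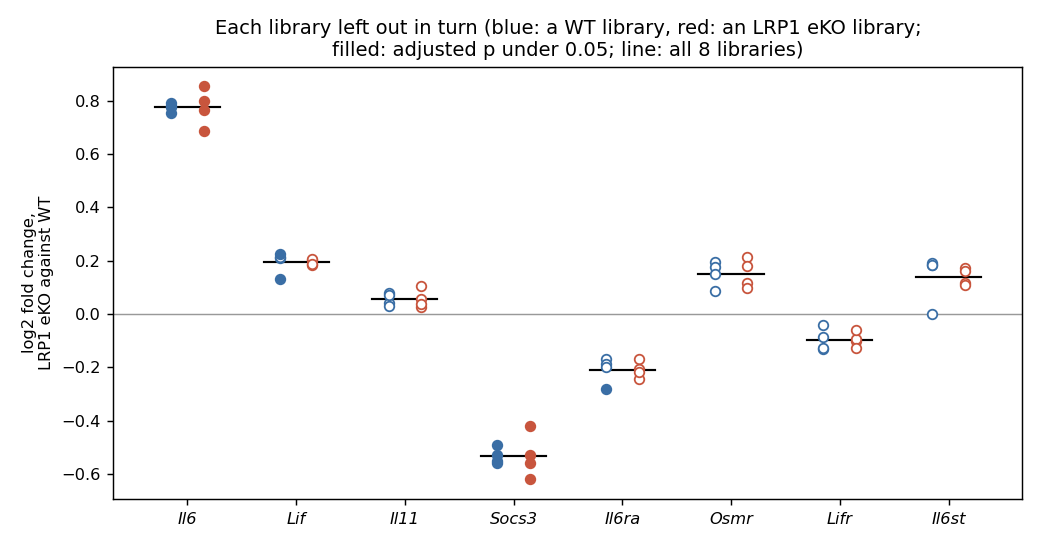
Log2 fold change of LRP1 eKO against WT (y axis) for each IL-6 family gene (x axis) with 1 WT (blue) or 1 LRP1 eKO (red) library left out, filled where the adjusted p was under 0.05, and a line for all 8 libraries. Il6 and Socs3 are filled throughout, Lif in 2 of 8 analyses and Il6ra in 1, and Il6st drops to 0.00079 without WT replicate 4. Where an LRP1 eKO library was left out, Il6 was below the filter and was fitted without it, as Il11 always was.

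Other genes of the pathway were taken from 6 lists of 83 genes in all, of which 81 were found by symbol and 64 were tested. At an adjusted p under 0.05, 19 were higher and 17 lower in LRP1 eKO libraries, which is 56.2% of those tested against the background of 41.2%. With the 2-fold threshold, 7 were called. The median log2 fold change was 0.06.

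Among 9 further ligands, 4 were tested, and 3 of these rose and 1 fell. Cntf, the gene of ciliary neurotrophic factor, rose from 1.11 ± 0.240 to 2.43 ± 0.356, with a log2 difference of 0.70 (limma adjusted p = 5.7e-04). Of its WT libraries, 2 were below 1, so that it passed the filter with the help of the LRP1 eKO libraries. Clcf1, which encodes cardiotrophin-like cytokine factor, rose by 0.29 (limma adjusted p = 0.0085). Ctf1, the gene of cardiotrophin-1, fell from 5.0 ± 0.596 to 3.11 ± 0.280, with a log2 difference of -0.54 (limma adjusted p = 7.4e-04). For Cntf, Clcf1 and Ctf1, the groups did not overlap, as for 42.6% of all genes tested. Osm, the gene of oncostatin M, was below the filter, with a mean signal of 0.0623 for WT and 0.183 for LRP1 eKO, and did not pass the test.

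Of 9 further receptor and shedding genes, 8 were found and 5 tested, with 1 higher and 1 lower, or 2 lower without WT replicate 4. Il11ra1, which encodes the IL-11 receptor chain, fell from 54.7 ± 6.57 to 35.6 ± 1.78, with a log2 difference of -0.60 (limma adjusted p = 3.2e-04). Its signals did not overlap between the groups, as for 42.6% of all genes tested. Rhbdf2, which encodes iRhom2, a partner of the sheddase ADAM17, rose from 10.8 ± 0.791 to 16.6 ± 0.705, with a log2 difference of 0.58 (limma adjusted p = 7.5e-05). The log2 fold changes of Adam17 (-0.12, limma adjusted p = 0.11) and Rhbdf1 (-0.12, limma adjusted p = 0.19) did not pass the test. Without WT replicate 4, Adam17 was at -0.17 and passed it (limma adjusted p = 0.0086).

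All 13 transducer genes were tested, and 6 rose while 0 fell at an adjusted p under 0.05 from limma. Of all genes tested, 19% rose and 22.2% fell, 41.2% in either direction. Without WT replicate 4, 2 transducer genes fell at an adjusted p under 0.05 from limma, among them Stat3. Stat2 rose from 9.17 ± 0.199 to 23.1 ± 0.912, with a log2 difference of 1.25 (limma adjusted p = 1.1e-07). Its product transduces interferon signals. The kinase gene Jak1 rose by 0.37 (limma adjusted p = 8.7e-04) and Ptpn11, whose phosphatase SHP2 binds gp130, by 0.33 (limma adjusted p = 0.0038). Stat3, named after its values were seen because it is the main STAT of the family, had signals of 74.8, 76.5, 71.3 and 58.9 for WT 1 to 4 and of 66.3, 60.2, 70.7 and 59.4 for LRP1 eKO 1 to 4. Its log2 fold change of -0.13 (95% interval -0.32 to 0.07, limma adjusted p = 0.26) did not pass the test, but without WT replicate 4 it was -0.21 and passed (limma adjusted p = 0.026).

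Of 13 tested negative regulators other than Socs3, 2 rose and 2 fell. Socs5 fell from 28.9 ± 1.82 to 22.3 ± 0.419, with a log2 difference of -0.36 (limma adjusted p = 6.0e-04), and Ptpn2, which encodes a JAK and STAT phosphatase, fell by 0.26 on the log2 scale (limma adjusted p = 0.018). Socs6 and Socs7 rose by 0.21 and 0.15 (limma adjusted p = 0.034 and 0.049). When any 1 library was left out, the adjusted p of Socs7 from limma was over 0.05 in all 8 analyses, and that of Socs6 in 4 of them. The number of higher genes in this list was then 0 or 1, and the number of lower genes was 1 without LRP1 eKO replicate 1.

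Among 19 tested STAT3-related target genes, 7 rose and 5 fell, with a median log2 fold change of 0.09. Without LRP1 eKO replicate 4, 3 rose. Steap4, which encodes a metalloreductase, fell from 158 ± 5.70 to 42.7 ± 3.74, with a log2 difference of -1.87 (limma adjusted p = 4.7e-08). The transcription factor gene Cebpb fell by 0.79 (limma adjusted p = 9.0e-05) and the chemokine gene Cxcl1 by 0.40 (limma adjusted p = 0.0023). Myc, a growth regulator, rose from 15.2 ± 0.852 to 23.7 ± 1.03, with a log2 difference of 0.61 (limma adjusted p = 2.6e-05). These 4 genes were named for their small adjusted p, and their signals did not overlap between the groups, as for 42.6% of all genes tested. The list as a whole had no common direction.

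Of the 18 hepatic acute phase genes, 10 were tested; 8 of these fell, the other 2 did not pass the test, and the list had a median log2 fold change of -1.06. Of the 8 below the filter, Itih3, Itih4 and Apcs were also lower when fitted without it. Fgb, which encodes the fibrinogen beta chain, fell from 25.6 ± 4.05 to 6.89 ± 1.23, with a log2 difference of -1.75 (limma adjusted p = 9.7e-06). Fgg, the gene of the fibrinogen gamma chain, fell by 1.87 (limma adjusted p = 2.8e-06), and Fga, that of the alpha chain, by 1.5 (limma adjusted p = 4.8e-06). Fgg reached a signal of 1 in all 4 WT but only 2 LRP1 eKO libraries, so that its WT libraries alone met the filter. The haptoglobin gene Hp fell by 1.33 (limma adjusted p = 6.0e-06) and the hemopexin gene Hpx by 1.15 (limma adjusted p = 3.0e-06). These genes are expressed by hepatocytes, and the hepatocyte marker sums given above were lower in the same libraries, and their part in this result was not tested.

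**Figure D5:**
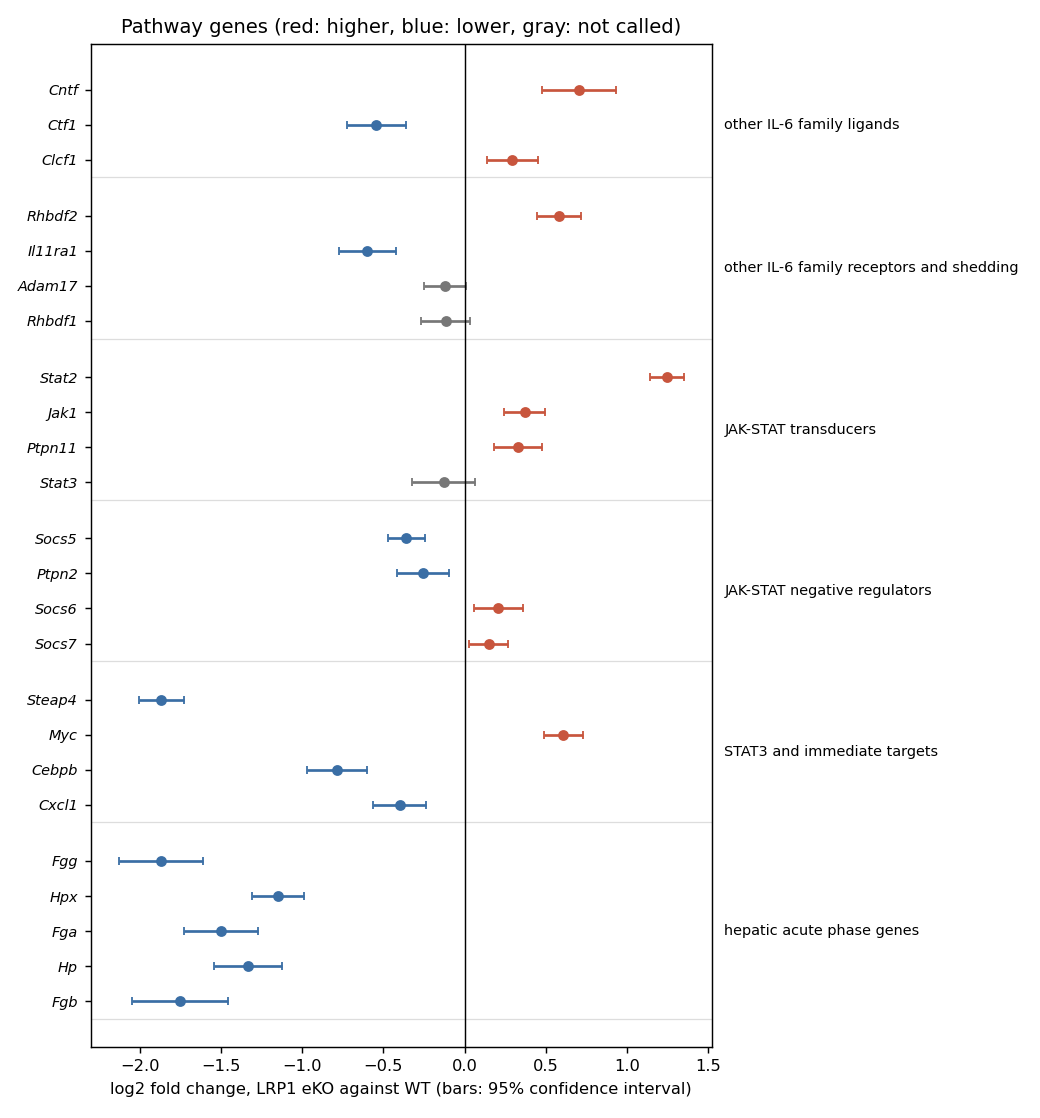
Log2 fold change of LRP1 eKO against WT (x axis), with 95% confidence intervals as bars, for 24 genes of the 6 pathway lists (y axis), red where higher, blue where lower and gray where not called. Every acute phase gene shown lies to the left of 0, Stat2 lies farthest to the right, and the other lists hold genes on both sides.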

How the data were processed

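The values came from RNA-seq of 4 WT and 4 LRP1 eKO libraries, assigned by their labels. The authors deposited a quantile-normalized signal for each gene and library. Per the labels, TopHat2 and Cufflinks on mm10 were used, whereas the paper's methods name STAR, featureCounts and edgeR on counts; neither source describes this table, and counts were not used here. Quantile normalization removes a global shift between groups. Depth is unknown.

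From the signal, log2(signal + 1) was tested with limma 3.58.1 (R 4.3.3), genotype as the only term, with a mean-variance trend, over the 11391 genes that reached a signal of 1 in 4 or more libraries. Genes below this were fitted without the filter. Calls used a Benjamini-Hochberg adjusted p under 0.05, and the 2-fold threshold was counted beside it. The calculation was tested on simulated data. Gene positions came from GENCODE M21 (GRCm38). Figures were drawn with matplotlib 3.10.9.

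The members, lists and tests were chosen with earlier results of these data known. Named pathway genes were, per list, those past adjusted p and 2-fold, and otherwise up to 4 with the smallest adjusted p. Stat3, Osm, Itih3, Itih4, Apcs, Csf1r, Clec4f, Vsig4, Marco, Cd5l, Timd4, Alb, Trf, Tnnc2, Atp2a1, Myh11, Oit3, Tek, Erg, Eng, Flt1, Cldn5, Pecam1, Cdh5 and the lymphocyte genes named as listed at 0 were chosen after their values were seen. Alternatives were other pseudocounts, filters, moderation, weights, centring, the replicate number as a block, and libraries left out. Some genes that this rule names are not reported here.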

Additional observations from a re-analysis of the deposited data

Results flagged for a closer look

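Over the members and other genes examined singly, 74 groups of 4 libraries were examined with Dixon's test, and in 4 of them a library stood far from the other 3, where 3.7 such cases would arise by chance. Each value is the distance of that library from its nearest neighbor divided by the spread from lowest to highest. For Il6st and Lif, the lowest WT library was replicate 4 (0.950 and 0.835). Replicate 4 was also the highest WT library for Hp (0.862), and LRP1 eKO replicate 1 was the highest of its group for Fga (0.891).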

How the results depend on the processing

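Il6 and Socs3 kept their direction and an adjusted p under 0.05 from limma in every alternative with a test, and Osmr, Lifr, Il6st and Il11 did not pass in any. In alternatives that left out an LRP1 eKO library or asked for a mean signal of 5, Il6 was below the filter. Its value there came from the fit without the filter. With 1 library left out, the log2 fold change ranged from 0.69 to 0.85 for Il6, from -0.62 to -0.42 for Socs3, from 0.13 to 0.23 for Lif and from -0.28 to -0.17 for Il6ra. It ranged from 0.085 to 0.22 for Osmr, from -0.13 to -0.039 for Lifr, from 0.00079 to 0.19 for Il6st, from 0.027 to 0.10 for Il11 and from -3.80 to -3.42 for Lrp1. The number of members called ranged from 1 to 2 in each direction. Over all genes, from 81 to 163 were higher and from 75 to 105 lower past both thresholds, the most higher calls without LRP1 eKO replicate 2, against 99 and 90 with all libraries. Without WT replicate 4 and LRP1 eKO replicate 2 together, 152 were higher, and 2 members were lower, since Il6ra was called at -0.24. Array weights also gave 2 lower members, with Il6ra at -0.25 (limma adjusted p = 0.0041). With no filter, 1 member was higher, since Lif at 0.20 had a limma adjusted p of 0.086 when more genes were tested. A pseudocount of 0.1 gave 149 higher and 166 lower genes, and a pseudocount of 5 gave 40 and 26. A minimum mean signal of 5 left 63 higher genes and 11 lower pathway genes, as fewer genes were tested. The log2 ratio of mean signals, chosen after seeing the data, was 1.53 for Il6 and 0.24 for Il11, larger by its construction without a pseudocount.

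No pairing of the libraries by replicate number was seen. The deviations of same-numbered libraries correlated at -0.086, -0.13, 0.18 and 0.038, and 0 of 8 libraries correlated best with their own number. Single libraries far from their group weigh on these values, so they cannot exclude a pairing. With the replicate block, 1 member was higher, since Lif at 0.20 had a limma adjusted p of 0.066. For 28 other genes, 470 of 504 values under 18 alternatives gave the same call, 24 lost it, 10 gained it and 0 changed direction. Without read depth, counting error could not be separated from other spread, which matters most for Il6 and Il11.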

Other observations

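The genes with the profile most like that of a member were found by the mean absolute difference of log2(signal + 1), each profile centred on its own mean over the 8 libraries. For Il6, these were Vcan (0.0856) and Tdrd7 (0.0950), which were higher in LRP1 eKO libraries by 0.76 and 0.69 on the log2 scale. For Socs3 they were Ckb (0.0590) and Marcksl1 (0.0606), which were lower, with log2 fold changes of -0.59 and -0.54. For Lif the nearest were Golph3 (0.0095) and Ltn1 (0.016), and for Osmr they were Col1a1 (0.0323) and Asah2 (0.0421). For Il6st they were Slc6a6 (0.0288) and Col4a5 (0.0313). These likenesses describe 8 libraries and include the difference between the groups.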
